A study of Rattus norvegicus with 9 samples.

Results

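Apolipoproteins and the proteins that assemble and remodel lipoproteins were examined at the mRNA level in the livers of diabetic rats with and without chronic stress. The set holds 10 genes chosen by name, Apoa1, Apoa2, Apoa4, Apoa5, Apob, Apoc3, Apoe, Mttp, Lipc and Lcat. The rule itself uses no measured value, but the genes were chosen with earlier results of these data known. The array annotation gave them 12 probe sets, out of 31042 probe sets and 14217 genes in all. Apob and Apoe had 2 probe sets each, and the one with the higher mean signal was used for the gene. The other Apoe probe set was the only 1 of the 12 below the filter on low signals, with signals between 3.48 and 91.1.

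The liver secretes triglyceride and cholesterol ester in very-low-density lipoprotein (VLDL), a particle built around apolipoprotein B. The microsomal triglyceride transfer protein, encoded by Mttp, loads lipid onto apolipoprotein B in the endoplasmic reticulum, and without it the particle is not formed. Apolipoprotein A-I takes up cholesterol from cells to form high-density lipoprotein (HDL), and the smaller apolipoproteins exchange between particles in plasma, where they act on lipases and receptors.

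Livers of 9 male Goto-Kakizaki (GK) rats, a strain with spontaneous diabetes, were hybridised to Affymetrix rat expression arrays, 1 array per rat. CUMS 1 to CUMS 3 (symptom label major depression) and CUMS 4 to CUMS 6 (mild depression) were each caged alone and exposed to chronic unpredictable mild stress (CUMS), which lasted 8 weeks. Control 1 to control 3 (undepression) were fed normally without stress. By the methods of the study, all rats were diabetic before the stress began, and all, controls included, had received oral repaglinide, a glucose-lowering drug, before the livers were collected. The labels give no age. The criterion that separated major from mild depression was not found in the sources used here.

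The values are signals on a linear scale that the authors made with MAS 5.0. Fold changes are on the log2 scale, from 1 limma fit over the 9 arrays and 18625 probe sets past the filter, and adjusted p-values are over all of these. The 9 measured hepatocyte markers of 10, albumin among them, summed to between 202385 and 234919 signal units in CUMS 1 to CUMS 3, between 241572 and 261419 in CUMS 4 to CUMS 6 and between 200640 and 258533 in control livers. Control 3 stood apart, with a median correlation of 0.951 with the other arrays, against 0.965 to 0.972 for the rest. Its 10 measured stellate cell and fibroblast markers summed to 31891, against 4811 to 5582 in CUMS 1 to CUMS 3, 6088 to 7898 in CUMS 4 to CUMS 6 and 8211 and 8250 in control 1 and control 2. Its 5 measured bile duct markers summed to 9364, against 819 to 1356 on the other 8 arrays. The 9 measured Kupffer cell and macrophage markers summed to between 22543 and 30147 in CUMS 1 to CUMS 3, between 23147 and 32437 in CUMS 4 to CUMS 6 and between 28936 and 42084 in control livers. Adipoq, Plin1 and Lep, which define adipocytes, were below the filter, but the 2 measured adipocyte markers of 5, Fabp4 and Cidec, summed to 5543 in control 3, against 1663 to 3119 on the other 8 arrays. As a measure of RNA degradation, the 3′ probe set of beta-actin over the 5′ one gave 5.23 in CUMS 2, 4.96 in CUMS 4, 2.51 in control 3 and 3.18 to 3.73 in the other rats. In whole liver, fewer cells of a type and less RNA per cell cannot be told apart.

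Mttp was the 1 member whose groups did not overlap in any comparison, although limma called no probe set of the array after adjustment. Its signals were 8305, 8856 and 8354 in CUMS 1 to CUMS 3, 6819, 6916 and 7723 in CUMS 4 to CUMS 6, and 5573, 5874 and 5958 in control 1 to control 3. All rats with major depression lay above all rats with mild depression, and all of these above all controls. The same order held for 12 of 18625 probe sets, a percentage of 0.0644. This order was taken from the values of Mttp and counted in this direction only, so the share is a description. A given full order of 3 groups of 3 rats is rare even without a difference. The small share alone therefore does not set Mttp apart.

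The means were 8505 ± 305 in CUMS 1 to CUMS 3, 7153 ± 496 in CUMS 4 to CUMS 6 and 5802 ± 203 in control livers (SD, n = 3 each). The Mttp log2 fold change of major depression against control was 0.55 (standard error 0.09, 95% interval 0.36 to 0.75), which is 1.47-fold, with the second smallest p of the 18625 probe sets and an adjusted p of 0.282 from limma. For mild depression against control it was 0.30 (95% interval 0.11 to 0.50, adjusted p = 0.744 from limma). Between the CUMS groups, the log2 fold change of major against mild depression was 0.25 (95% interval 0.06 to 0.45, adjusted p = 0.9996 from limma). Thus the intervals of Mttp excluded 0 in each comparison while the adjusted p-values did not pass 0.05.

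Over all 6 CUMS rats the log2 fold change of Mttp was 0.43 (95% interval 0.26 to 0.60, adjusted p = 0.2998 from limma), and an exact two-sided permutation test over the 84 ways to split the 9 rats gave p = 0.0238, the smallest it can give. With 3 rats against 3 the same test has 20 splits and cannot go below 0.1. The result for all 6 CUMS rats follows from the lack of overlap already seen. Of all probe sets, 3.68% did not overlap in this comparison. The test was added after the values of Mttp were seen, so it gives no further support. Leaving out any 1 rat kept the log2 fold change against control between 0.52 and 0.57 for major depression and between 0.24 and 0.33 for mild depression.

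**Figure D1:**
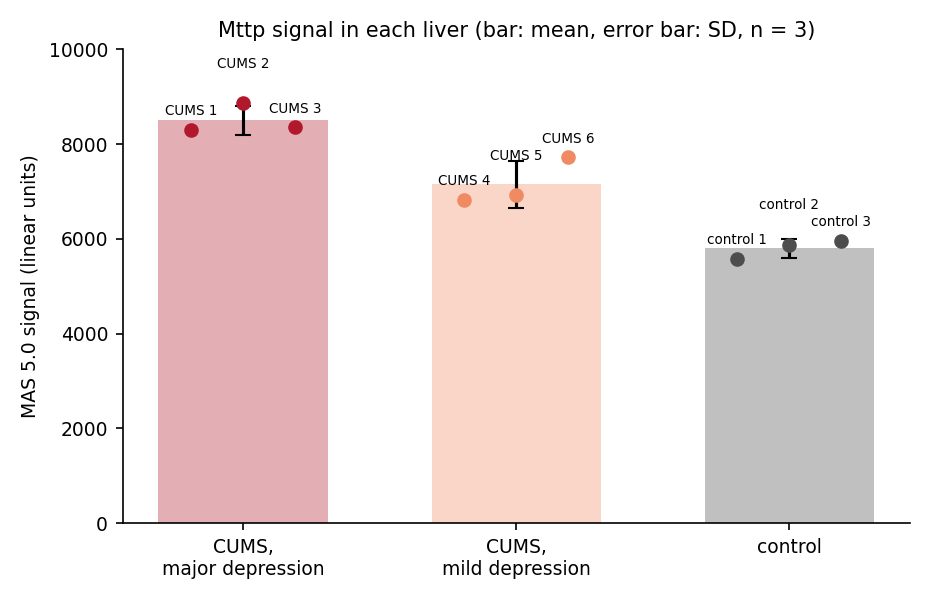
MAS 5.0 signal of Mttp (y axis, linear units from 0) in the liver of each rat (points) with the mean (bar) and SD (error bar) of each group of 3. The 3 rats with major depression lie between 8305 and 8856, those with mild depression between 6819 and 7723 and the controls between 5573 and 5958.

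Because each array was scaled to a common mean, Mttp was also set against other secretory pathway genes of the same array. Relative to P4hb, the protein disulfide isomerase that forms the other subunit of the transfer protein, the log2 Mttp signal minus the control mean was 0.51, 0.62 and 0.68 in CUMS 1 to CUMS 3, 0.17, 0.41 and 0.47 in CUMS 4 to CUMS 6, and −0.02, −0.04 and 0.06 in control 1 to control 3. Relative to Apob it was 0.53, 0.65 and 0.61 in CUMS 1 to CUMS 3, 0.20, 0.14 and 0.30 in CUMS 4 to CUMS 6, and −0.17, 0.07 and 0.10 in the controls. The order of the groups was kept in both ratios. Relative to Alb, which encodes albumin, CUMS 1 to CUMS 3 stood at 0.60, 1.12 and 0.81. However, CUMS 4 to CUMS 6 at −0.05, 0.07 and 0.34 overlapped the controls at −0.21, −0.09 and 0.29. Alb itself had a log2 fold change of −0.29 in major depression against control and −0.47 in major against mild depression. A second Alb probe set had −0.55 in major depression against control. None of these was called by limma, but the ratio to Alb carries the lower Alb signal as well as Mttp.

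Quantile normalization, which gives every array the same distribution of signals, left CUMS 1 to CUMS 3 above all other rats, with log2 Mttp values of 0.47, 0.55 and 0.54 above the control mean. It brought CUMS 4 to 0.118, just under control 3 at 0.121, so that mild depression and control overlapped. After that normalization 19 probe sets, or 0.102%, held the order of the 3 groups, and Mttp was not among them. The summed stellate cell and fibroblast markers were lower in all CUMS livers than in all control livers, without overlap, and their part in the Mttp result was not tested.

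The other 9 genes had smaller changes than Mttp in major depression against control, whereas in mild depression against control Apoa1 changed more (0.35 against 0.30 on the log2 scale). Against control, 1 of the 10 genes had an unadjusted p under 0.05 in major depression, where 6.76% of all probe sets did, and 2 did in mild depression, where the share was 6.28%. Over all CUMS rats 2 of 10 did, against a share of 7.93%, and between major and mild depression 1 did, against 2.85%. These were Mttp in each comparison and Apoa1 in the comparisons of mild depression and of all CUMS rats with control. After adjustment, limma called 0 of the 11 member probe sets, and 0% of all probe sets, in major depression against control, and likewise 0% in mild depression against control, 0% in all CUMS rats against control and 0% in major against mild depression.

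The median log2 fold change of the 10 genes was −0.01 in major depression, 0.10 in mild depression and 0.03 in all CUMS rats against control, and −0.08 in major against mild depression. Over all 10403 genes it was −0.02, −0.02, −0.02 and −0.01 in the same comparisons. For Apoa2, Apob, Apoc3, Lipc and Lcat, 5 of the 10 genes, the whole 95% interval of the fold of major depression against control lay between 0.8 and 1.25. Such an interval was found for 3 of the 10 in mild depression, 6 in all CUMS rats and 3 in major against mild depression. The share over all genes is not given. Apoa2, Apob and Apoc3 have very bright probe sets, and whether their range is compressed was not tested.

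**Figure D2:**
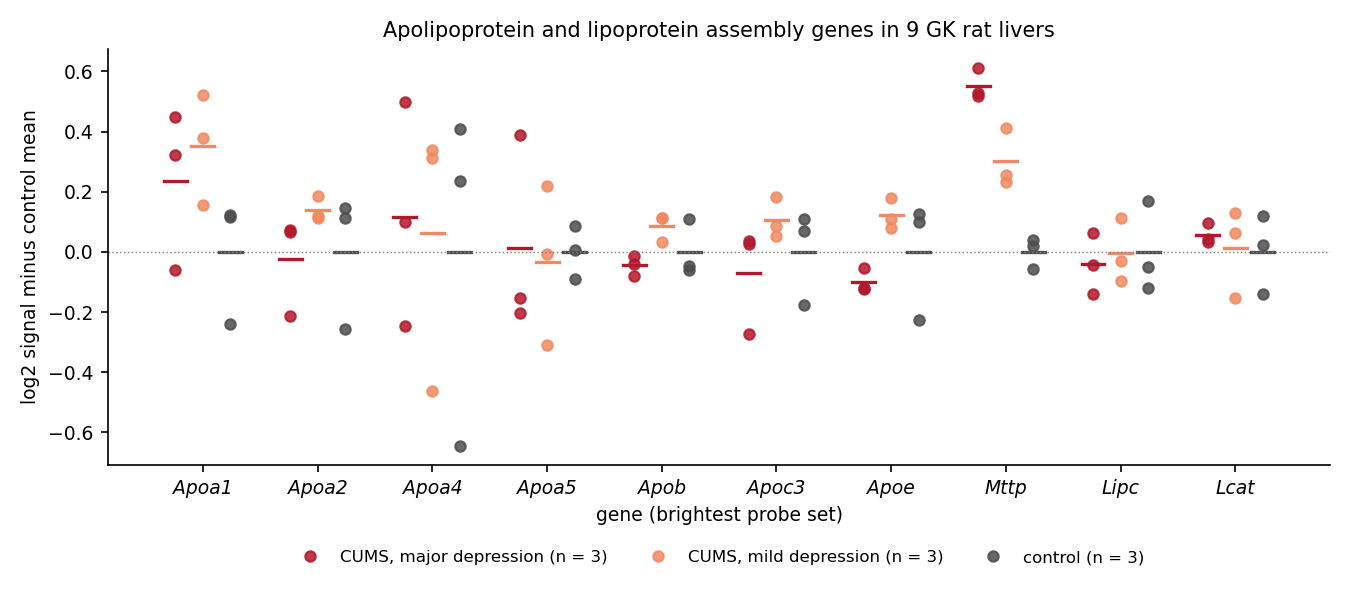
Log2 signal of each of the 10 genes in each rat, minus the mean of the 3 controls (y axis), by gene (x axis). Points are rats and short lines are group means, with major depression left, mild depression in the middle and control right. Only Mttp has 3 groups that do not overlap, and Apoa4 spans the widest range.

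**Figure D3:**
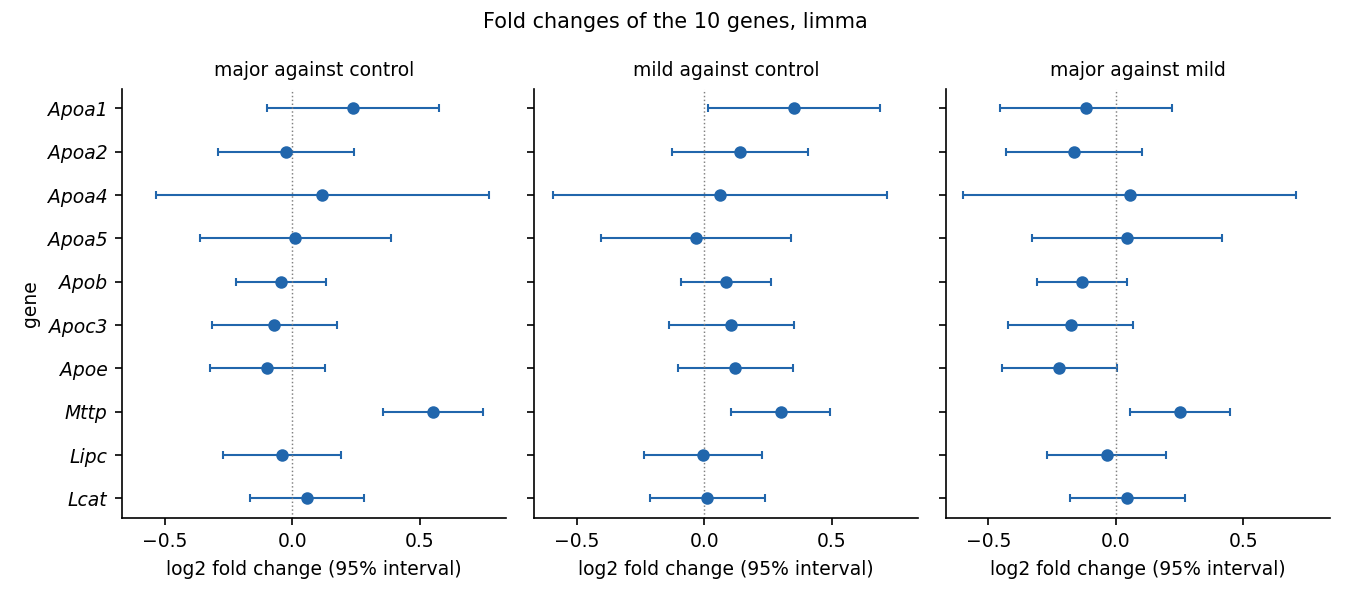
Log2 fold changes from limma (points) with their 95% intervals (bars) for the 10 genes in major depression against control, mild depression against control and major against mild depression. The interval of Mttp lies above 0 in all 3 panels, that of Apoa1 in mild depression against control, and the others include 0.

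Among the apolipoproteins of HDL, Apoa1 encodes the main structural protein and activates LCAT. Its signals were 22242, 24293 and 17096 in CUMS 1 to CUMS 3, 19841, 23158 and 25575 in CUMS 4 to CUMS 6, and 19393, 15085 and 19318 in control 1 to control 3. Rats with mild depression lay above the controls without overlap, whereas CUMS 3 fell among the controls. After quantile normalization mild depression and control overlapped, with CUMS 4 at 0.03 below control 1 at 0.06 and control 3 at 0.27 on the log2 scale against the control mean, and the log2 fold change of Apoa1 in mild depression was 0.21. The log2 fold change was 0.35 in mild depression (95% interval 0.01 to 0.69, adjusted p = 0.778 from limma), 0.24 in major depression (−0.10 to 0.57) and 0.29 in all CUMS rats (0.002 to 0.59, adjusted p = 0.623 from limma). An exact two-sided permutation test of the 6 CUMS rats against the 3 controls gave p = 0.0952. Leaving out 1 rat moved the value for mild depression between 0.23 and 0.45 and that for major depression between 0.12 and 0.38.

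Apoa2 encodes the second structural protein of HDL. It read 31503, 31690 and 26003 in CUMS 1 to CUMS 3, 32585, 32738 and 34290 in CUMS 4 to CUMS 6, and 33292, 32568 and 25216 in control 1 to control 3. CUMS 3 and control 3 were low, and the others lay close together. Major depression was lower than mild depression in every rat, at a log2 fold change of −0.16 (95% interval −0.43 to 0.10).

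Apob encodes the structural protein of VLDL, and its signal spanned 1.14-fold over the 9 rats, the smallest range among the members. This probe set lay at on average 83% of the highest signal of its array, and whether the range is compressed there, also in the ratio of Mttp to Apob, was not tested. Its signals were 32604, 31960 and 31142 in CUMS 1 to CUMS 3, 33676, 35560 and 35611 in CUMS 4 to CUMS 6, and 35449, 31832 and 31565 in control 1 to control 3. The log2 fold change was −0.04 in major depression (95% interval −0.22 to 0.13) and 0.09 in mild depression (−0.09 to 0.26) against control. Apob, the partner of Mttp in VLDL assembly, was not called by limma in any comparison, and neither was Mttp. The second Apob probe set, between 176 and 602 signal units, overlapped in all comparisons.

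Apoc3 inhibits lipoprotein lipase and slows the uptake of remnants by the liver. It read 34243, 34011 and 27643 in CUMS 1 to CUMS 3, 34657, 35451 and 37889 in CUMS 4 to CUMS 6, and 35016, 36048 and 29520 in control 1 to control 3. Again CUMS 3 and control 3 were low. Apoe, the ligand by which remnants bind lipoprotein receptors, read 20592, 21644 and 20681 in CUMS 1 to CUMS 3, 24237, 23707 and 25423 in CUMS 4 to CUMS 6, and 24067, 24522 and 19188 in control 1 to control 3. All rats with major depression lay below all rats with mild depression, and the controls spanned both groups. The log2 fold change of Apoe in major against mild depression was −0.22 (95% interval −0.45 to 0.004, adjusted p = 0.9996 from limma).

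Major and mild depression did not overlap in 5 of the 10 genes, lower in major depression for Apoa2, Apob, Apoc3 and Apoe and higher for Mttp, where 9.11% of all probe sets did not overlap. Against control, 1 of 10 genes did not overlap in major depression (11.6% of all probe sets), 2 of 10 in mild depression (11.6%) and 1 of 10 in all CUMS rats (3.68%). The probe sets of Apoa2, Apoc3 and Apob lay near the top of the signal range, at on average 77.2%, 84% and 83% of the highest signal of the array. The mean log2 signal of the 100 brightest other probe sets, minus the control mean, was 0.01, 0.08 and −0.14 in CUMS 1 to CUMS 3, 0.10, 0.08 and 0.17 in CUMS 4 to CUMS 6, and 0.08, 0.11 and −0.19 in control 1 to control 3. CUMS 3 and control 3 were thus low and CUMS 6 high in these probe sets too. The summed hepatocyte markers given above were lower in every rat with major depression than in every rat with mild depression as well. As a mean log2 signal minus the control mean, the same markers overlapped between these groups. They stood at 0.028, −0.026 and −0.235 in CUMS 1 to CUMS 3 and at −0.103, 0.091 and 0.174 in CUMS 4 to CUMS 6. The part of the brightest probe sets or of the hepatocyte markers in the values of the 4 apolipoproteins was not tested. After quantile normalization 1 of the 10 genes, Mttp, kept major and mild depression apart, against 8.59% of all probe sets.

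**Figure D4:**
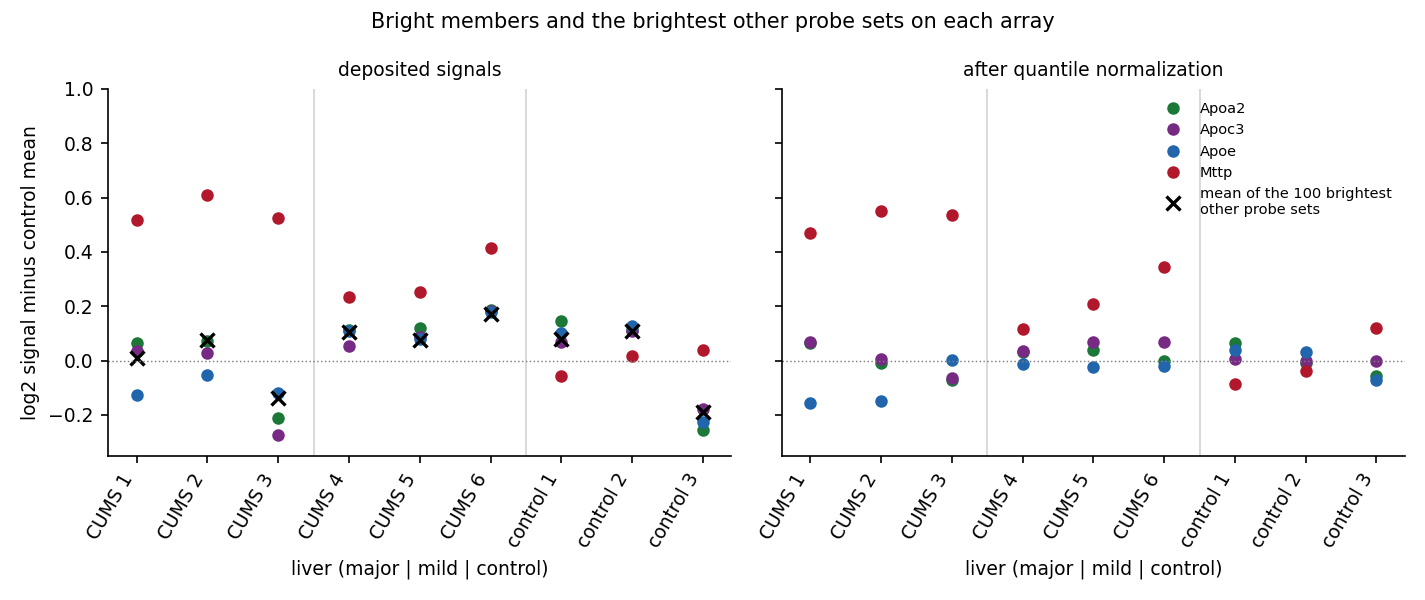
Log2 signal minus the control mean (y axis) of Apoa2, Apoc3, Apoe and Mttp in each rat (x axis, major depression, mild depression, control), as deposited (left) and after quantile normalization (right). Crosses show the mean of the 100 brightest other probe sets. It is low in CUMS 3 (−0.14) and control 3 (−0.19) together with Apoa2 and Apoc3, while Mttp is not. As deposited, Apoe is low in control 3 but no lower in CUMS 3 (−0.119) than in CUMS 1 (−0.125).

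Apoa4 and Apoa5 encode apolipoproteins that bind triglyceride-rich particles, and apolipoprotein A-V raises the activity of lipoprotein lipase. Both genes stand in a cluster on chromosome 8, where the RefSeq annotation of GRCr8 lists Apoa1, Apoc3, Apoa4 and Apoa5 next to each other in this order. Their promoters are shown from 250 bases before the RefSeq start to 50 bases from it on (RefSeq, GRCr8, plus strand, 5′ to 3′), because Apoa4 varied most among the members and Apoa5 is its neighbour. Capitals mark matches, on either strand, to the TATA box (searched as TATAAA), the nuclear receptor half-site (searched as AGGTCA), an element of the HNF4 type (searched as AAAGTCCA), the E-box (searched as CACGTG) and the GC box (searched as GGGCGG). The Apoa4 window is chr8:55435529-55435828 and the Apoa5 window, the first of 2 listed, chr8:55457621-55457920.
Apoa4: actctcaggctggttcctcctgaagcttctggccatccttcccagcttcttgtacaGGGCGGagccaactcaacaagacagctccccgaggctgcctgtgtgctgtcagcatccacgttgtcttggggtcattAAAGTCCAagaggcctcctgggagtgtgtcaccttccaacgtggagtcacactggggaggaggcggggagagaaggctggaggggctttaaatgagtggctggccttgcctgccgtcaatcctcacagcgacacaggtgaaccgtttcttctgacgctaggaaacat
Apoa5: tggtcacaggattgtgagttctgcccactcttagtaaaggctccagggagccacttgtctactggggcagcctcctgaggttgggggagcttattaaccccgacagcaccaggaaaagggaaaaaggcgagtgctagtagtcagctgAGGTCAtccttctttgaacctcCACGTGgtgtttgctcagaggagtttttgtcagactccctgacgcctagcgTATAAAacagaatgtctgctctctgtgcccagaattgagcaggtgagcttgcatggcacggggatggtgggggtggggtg

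The Apoa4 window held GGGCGG at −194 and AAAGTCCA at −117, counted from the RefSeq start. Of 33469 rat promoter windows of the same length, 33.1% held GGGCGG and 1.37% held AAAGTCCA. The Apoa5 window held AGGTCA at −103, CACGTG at −81 and TATAAA at −30, found in 16.2%, 6.42% and 14.2% of all windows. The motifs did not overlap one another, and a match describes the letters only.

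Apoa4 signals were 11773, 15533 and 9266 in CUMS 1 to CUMS 3, 13911, 13646 and 7974 in CUMS 4 to CUMS 6, and 14583, 12954 and 7034 in control 1 to control 3. The range was 2.21-fold over the 9 rats, and a high and a low rat stood in each group. The log2 fold change was 0.12 in major depression (95% interval −0.54 to 0.77) and 0.06 in mild depression (−0.59 to 0.72) against control, and without control 3 these became −0.21 and −0.26. Apoa5 signals were 7524, 7267 and 10952 in CUMS 1 to CUMS 3, 9725, 6749 and 8323 in CUMS 4 to CUMS 6, and 7849, 8868 and 8394 in control 1 to control 3. CUMS 3 was the highest and CUMS 5 the lowest, with the controls between them, and the log2 fold changes of 0.01 and −0.03 in major and mild depression against control were within the spread of the rats.

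The 6 pairs within the cluster were tested for a correlation over the 9 rats with exact two-sided permutation tests over all 362880 pairings, and no pair passed after adjustment over the 6. In the deposited signals Pearson's r was lowest for Apoa1 and Apoa5 at −0.63 (exact p = 0.0703, adjusted p = 0.422), with Spearman's rho at −0.67 (exact p = 0.0589, adjusted p = 0.353). It was −0.77 within groups, and −0.86 without CUMS 6 and control 2, the rats farthest from the median of Apoa1. After quantile normalization r was −0.46 for this pair and lowest for Apoc3 and Apoa5, at −0.74 (adjusted p = 0.132 from the exact permutation tests). For Apoc3 and Apoa4 r was 0.44 (exact p = 0.228, adjusted p = 0.427), with rho at 0.10 (exact p = 0.81, adjusted p = 0.81), and without CUMS 3 and control 3 r was −0.82, so the positive value rests on those rats. For Apoa1 and Apoc3 r was 0.40 and rho 0.30 (exact p = 0.285 and 0.437, adjusted p = 0.427 and 0.736), and 0.71 without CUMS 6 and control 2. The 3 remaining pairs did not pass either. For Apoa1 and Apoa4 r was 0.01 and rho 0.20 (exact p = 0.973 and 0.613, adjusted p = 0.973 and 0.736), and 0.57 without the same rats. For Apoc3 and Apoa5 r was −0.52 and rho −0.23 (exact p = 0.146 and 0.552, adjusted p = 0.427 and 0.736), and 0.23 without CUMS 3 and control 3. For Apoa4 and Apoa5 r was −0.35 and rho −0.38 (exact p = 0.356 and 0.312, adjusted p = 0.427 and 0.736), and −0.64 without CUMS 6 and control 3. Levels of genes in the cluster therefore showed no called relation among these rats.

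Of 10402 other genes, those most like Apoa4 over the 9 rats by Pearson's r were Cebpa (0.97), which encodes a liver transcription factor, Khnyn (0.95), Mid1ip1 (0.95), a regulator of fatty acid synthesis, Hook1 (0.94) and Klf9 (0.94), a transcription factor induced by glucocorticoids. Without control 3 and CUMS 6, the rats farthest from the median of Apoa4, r was 0.92, 0.88, 0.81, 0.90 and 0.94 for these genes in the same order. The genes most like Mttp, looked up after its values were seen, were Crls1 (0.97), the cardiolipin synthase of mitochondria, Zfpl (0.93), Tle1 (0.92), a transcriptional corepressor, Ceacam1 (0.91), an adhesion molecule that takes part in insulin clearance by the liver, and Snapc4 (0.91). These are descriptions over 9 rats and share the grouping of the rats.

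Lipc encodes hepatic lipase, which hydrolyses lipids of remnants and HDL. Its signals were 10577, 9883 and 11377 in CUMS 1 to CUMS 3, 10190, 11777 and 10674 in CUMS 4 to CUMS 6, and 10516, 12259 and 10030 in control 1 to control 3. Lcat encodes the plasma enzyme that esterifies cholesterol on HDL, and it read 13165, 13740 and 13267 in CUMS 1 to CUMS 3, 13426, 11572 and 14081 in CUMS 4 to CUMS 6, and 13962, 13069 and 11671 in control 1 to control 3. All groups overlapped for both enzymes. Against control, the log2 fold change of Lipc was −0.04 (95% interval −0.27 to 0.19) in major depression and −0.005 (−0.24 to 0.23) in mild depression. That of Lcat was 0.06 (−0.17 to 0.28) in major depression and 0.01 (−0.21 to 0.24) in mild depression.

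Other genes of lipoprotein metabolism were read in 6 lists, and limma called 0 of their genes in any comparison. Of 14 measured VLDL assembly and secretion partners, 2 were higher and 0 lower at an unadjusted p under 0.05 in major depression against control, where 6.76% of all probe sets had such a p, and 1 was higher and 0 lower without control 3. Sar1b, a GTPase of the coat that carries lipoproteins out of the endoplasmic reticulum, read 7877, 8076 and 7867 in CUMS 1 to CUMS 3, 7461, 8018 and 7340 in CUMS 4 to CUMS 6, and 7038, 6837 and 5135 in control 1 to control 3. All CUMS rats lay above all controls, at a log2 fold change of 0.31 (adjusted p = 0.546 from limma), which was 0.16 without control 3. Dgat2, which makes triglyceride, stood at 8126 ± 583 in major depression and 6771 ± 564 in controls (SD, n = 3 each), without overlap. Its log2 fold change was 0.26 (adjusted p = 0.733 from limma), or 0.19 without control 3. A second Dgat2 probe set had a log2 fold change of 0.13 in the same comparison.

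Of 16 measured transcription regulators, 1 had an unadjusted p under 0.05 in major depression against control, where 6.76% of all probe sets did. This was Creb3l3, a liver transcription factor that in mice activates Apoa4 and Apoa5. It read 5113, 6193 and 6209 in CUMS 1 to CUMS 3, 4020, 5058 and 6277 in CUMS 4 to CUMS 6, and 4753, 3079 and 3865 in control 1 to control 3. Rats with major depression lay above the controls, and those with mild depression overlapped them. The log2 fold change of Creb3l3 in major depression was 0.60 (95% interval 0.19 to 1.01, adjusted p = 0.695 from limma), and 0.60 without control 3.

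For HDL formation and remodelling, 2 of 8 measured genes were higher and 1 lower at an unadjusted p under 0.05 in major depression against control. In mild depression against control 2 were higher and 0 lower. Of all probe sets, 6.76% had such a p in major depression and 6.28% in mild depression against control. Without control 3 the counts were 1 higher and 0 lower in each of these comparisons. Pon3, a lactonase carried on HDL, read 9596, 11396 and 9001 in CUMS 1 to CUMS 3, 11169, 10938 and 10348 in CUMS 4 to CUMS 6, and 8373, 8216 and 7325 in control 1 to control 3. Every CUMS rat lay above every control, and the log2 fold change in mild depression was 0.44 (adjusted p = 0.744 from limma), or 0.38 without control 3. Pon1, the related paraoxonase, stood at 22282 ± 1687 in mild depression and 18905 ± 2058 in controls (SD, n = 3 each), and its log2 fold change of 0.24 was 0.15 without control 3. In major depression against control the Pon1 probe set used had a log2 fold change of 0.10, and a second one had −0.49, opposite in sign. The value of the second Pon1 probe set in mild depression is not given. Pdzk1, the adaptor of the HDL receptor, stood at 1471 ± 247 in major depression and 1135 ± 118 in controls (SD, n = 3 each) and overlapped. Abcg1, a cholesterol exporter, stood at 574 ± 120 in major depression and 903 ± 314 in controls (SD, n = 3 each). Its log2 fold change of −0.62 was −0.35 without control 3. Abcg1 had 3 probe sets past the filter, and another of them had a log2 fold change of −0.23 in this comparison.

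Among 7 other measured apolipoproteins, all 7 had a higher mean in mild depression than in controls and 2 of these an unadjusted p under 0.05, where 6.28% of all probe sets had such a p and 46% of all genes a higher mean. Of the 9 measured hepatocyte markers, 8 had a higher mean in mild depression too. Apoh is in both lists, and the part of the hepatocyte markers in the count of apolipoproteins was not tested. Without control 3 the median log2 fold change of the 7 genes was 0.06, against 0.12 with it, and 1 gene had an unadjusted p under 0.05. Apom, an apolipoprotein of HDL that carries sphingosine-1-phosphate, read 13031, 12433 and 9605 in CUMS 1 to CUMS 3, 13994, 11901 and 14120 in CUMS 4 to CUMS 6, and 9472, 10292 and 8689 in control 1 to control 3. Rats with mild depression lay above the controls, at a log2 fold change of 0.49 (adjusted p = 0.744 from limma). Apon stood at 12005 over all CUMS rats and 9071 over the controls, a log2 fold change of 0.43 that was 0.20 without control 3, and the groups overlapped.

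Of the 6 measured lipases and their regulators, 1 was lower and 0 higher at an unadjusted p under 0.05 in major depression against control. Over all probe sets the share with such a p was 6.76%. Without control 3, 1 of the 6 genes was lower and 1 higher. Lpl, the lipoprotein lipase of fat, muscle and macrophages, which normal adult liver holds at low levels, read 188, 58.6 and 159 in CUMS 1 to CUMS 3, 317, 210 and 201 in CUMS 4 to CUMS 6, and 224, 438 and 2406 in control 1 to control 3. Control 3, the array with the high fibroblast and bile duct markers, carried most of the control mean, and it also had the highest sum of adipocyte markers; their part in the Lpl values was not tested. The log2 fold change of Lpl in major depression was −2.36 (95% interval −3.96 to −0.76, adjusted p = 0.69 from limma), and −1.38 without control 3. Among the 7 measured lipoprotein receptors and uptake proteins, 0 had an unadjusted p under 0.05 in any comparison. Of all probe sets, between 2.85% and 7.93% had such a p, depending on the comparison. Without control 3 there was 1 such gene, lower in all CUMS rats. The share over all probe sets is not given for the fits without control 3, so those counts, in all lists, have no share beside them.

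**Figure D5:**
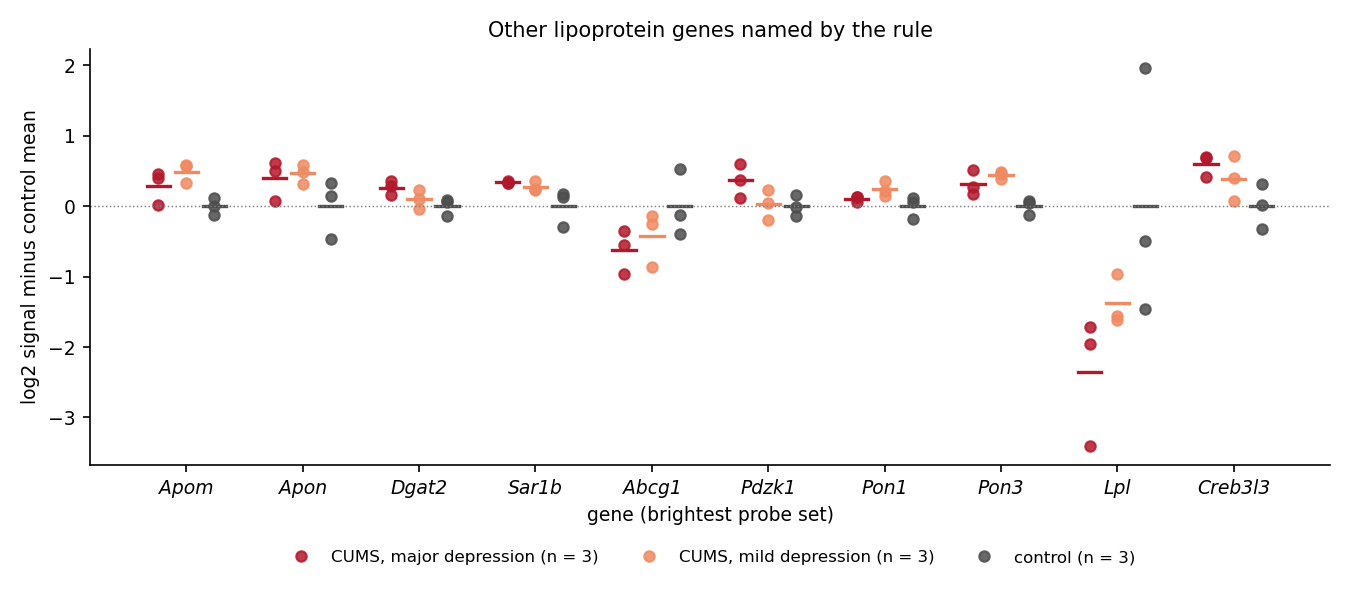
Log2 signal minus the control mean (y axis) of the 10 other lipoprotein genes with an unadjusted p under 0.05 in a comparison (x axis), at most 4 per list, in each rat. Points are rats and short lines group means, with major depression left, mild depression in the middle and control right. Control 3 gives the Lpl point at 1.96, far above the other 8 rats.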

How the data were processed

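The 10 genes and the gene lists were chosen with earlier results of these data known. The authors extracted RNA with TRIzol and prepared targets with the 3′ IVT Express kit. The deposited values are MAS 5.0 signal intensities, linear and brought on every array to a common trimmed mean (500.2 when 2% is removed at each end). The genome build of the array annotation was not given in the sources used here.

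The analysis (R 4.3.3) dropped 57 control probe sets, raised signals under 1 to this floor and used the log2 scale. Of the remaining probe sets the dimmest 40%, by mean over the 9 arrays, were not tested, so that 18625 probe sets of 10403 genes entered the fit. The 3 groups were fitted together with limma 3.58.1 (variance trend, 6 residual degrees of freedom), and p-values were adjusted by the Benjamini-Hochberg method over all 18625. Each rat is a separate animal with 1 array, so the number of arrays limits the precision. MAS 5.0 signals depend on the probes, so levels were not compared between genes. The scaling assumes that the trimmed mean is the same in all livers. The fit was tested on simulated data.

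Named were all 10 members with each array's value, genes of the 6 lists with an unadjusted p under 0.05 in any comparison (at most 4 per list, by smallest p), and the 5 genes most like the member of the widest range. Added after the data were seen were the genes most like Mttp, the within-array ratios and the exact test of Mttp. So were the counts of probe sets in the group order of Mttp and of groups that do not overlap after quantile normalization. The fits of list genes without control 3 were added then too. The alternatives are given in the closing section. Replicate numbers were checked for pairing: correlations of the deviations from group means were 0.003, −0.049 and 0.14, so the numbers were not taken as pairs. Promoters came from RefSeq (GRCr8) and matched 5 of the 10 genes by symbol.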

Additional observations from a re-analysis of the deposited data

Results flagged for a closer look

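Apob and Apoe stood on opposite sides of the control mean in the 2 CUMS groups. All 3 rats with major depression were below it and all 3 with mild depression above it, and the log2 fold change of major against mild depression was −0.13 for Apob and −0.22 for Apoe, neither called by limma. After quantile normalization the groups overlapped for both genes. Among the 6 CUMS rats, CUMS 3 stood apart with a low Apoa2 signal of 26003, and CUMS 5 with a low Lcat signal of 11572. Chance sets 1 rat apart in about 1 in 20 groups, and 20 genes were looked at. CUMS 3 was also low in the 100 brightest other probe sets, at −0.14 on the log2 scale against the control mean; whether this accounts for Apoa2 was not tested.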

How the results depend on the processing

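None of the 690 tested alternative fold changes of members had an adjusted p under 0.05 by limma, and Mttp kept its direction in all 73 of its alternatives, with log2 fold changes of 0.52 to 0.60 in major depression and 0.22 to 0.36 in mild depression against control and an adjusted p of 0.275 to 0.933 and 0.575 to 0.955. The 175 values of the other named genes kept their direction too, but each gene was taken only in the comparison where its p was smallest. A kept direction says little for values picked in this way. Of 370 member fold changes under alternatives other than leaving out a rat, 29 turned sign. None of those with a test was called, and the averages over all probe sets of a gene had no test. The cause was not tested.

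Quantile normalization gave log2 fold changes of −0.024 for Apoa5, 0.0087 for Apob and 0.0033 for Apoc3 in major depression, −0.026 for Apoa4, −0.019 for Apoe and −0.11 for Lcat in mild depression, −0.060 for Apoe and −0.043 for Lcat in all CUMS rats, all against control, and 0.0035 for Apoa1 and 0.056 for Lipc in major against mild depression. It moved the median of the 10 genes to 0.00025 in mild depression against control and to 0.030 in major against mild depression, and left 1 gene (Apoc3) not overlapping in mild depression against control, 0 in all CUMS rats and 1 (Mttp) in major against mild depression. Centring on the median gave 0.024 for Apoa2, 0.0039 for Apob and 0.0085 for Lipc in major depression, 0.025 for Apoa5 and 0.053 for Lipc in mild depression, and 0.043 for Apoa5 and 0.031 for Lipc in all CUMS rats, and called 1 probe set in mild depression and 1 in all CUMS rats, none of them a member. Array weights gave −0.011 for Apoa4 and −0.028 for Apoa5 in major depression, −0.11 for Apoa4 and −0.038 for Lcat in mild depression, and −0.062 for Apoa4, −0.0033 for Apoc3, −0.040 for Apoe and −0.0081 for Lcat in all CUMS rats. Averaging all probe sets of a gene, which brings in the dim second ones, gave 0.051 for Apob and 0.62 for Apoe in major depression against control, 0.030 and 0.40 in major against mild depression, and a median of 0.037 over the 10 genes there. The methods' test called 1 probe set in major depression against control after adjustment, no member among them. Its thresholds without adjustment or signal filter called 608 in major depression, 640 in mild depression, 758 in all CUMS rats and 509 in major against mild depression.

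Leaving out 1 rat turned 50 of 360 values. Against control the ranges were −0.15 to 0.069 in major depression and −0.071 to 0.13 in all CUMS rats for Apoa2, −0.075 to 0.0090 and −0.0090 to 0.075 for Apob, −0.16 to 0.031 and −0.071 to 0.073 for Apoc3, and −0.10 to 0.075 in all CUMS rats for Apoe. In major depression, mild depression and all CUMS rats they were −0.21 to 0.32, −0.26 to 0.33 and −0.23 to 0.29 for Apoa4, −0.18 to 0.12, −0.16 to 0.11 and −0.10 to 0.059 for Apoa5, −0.013 to 0.12, −0.057 to 0.096 and −0.035 to 0.094 for Lcat, and −0.10 to 0.045, −0.064 to 0.081 and −0.082 to 0.063 for Lipc. In major against mild depression they were −0.22 to 0.032 for Apoa1, −0.21 to 0.24 for Apoa4, −0.14 to 0.17 for Apoa5, −0.038 to 0.10 for Lcat and −0.087 to 0.023 for Lipc.

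With the replicate block the log2 fold change of Mttp in major depression against control was 0.55 (adjusted p = 0.315 by limma), and it called no probe set. The rats share only a number.

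With 3 rats per group, small differences could not be detected. For Apoa4 the 95% interval in major depression against control, −0.54 to 0.77, leaves room for a change of either sign.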
